A study of Mus musculus with 6 samples.

Results

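The 39 Hox genes of the mouse made up the set described here. They were taken from 30281 gene symbols by name alone, as every symbol made of Hox, a cluster letter from a to d and a paralog number. The HoxA cluster held 11 of them on chromosome 6 (52155590 to 52260880, minus strand), HoxB held 10 on chromosome 11 (96194316 to 96368256, plus strand), HoxC held 9 on chromosome 15 (102921103 to 103036852, plus strand) and HoxD held 9 on chromosome 2 (74668310 to 74765142, plus strand), in build GRCm38.

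Hox genes encode homeodomain transcription factors that give cells their position along the body. Genes at one end of each cluster, with low paralog numbers, are switched on in the hindbrain and neck of the embryo, and genes with high paralog numbers are switched on in the lower trunk, tail bud, limb ends and urogenital tract, while genes of the same number in different clusters are close relatives that share part of their work. Cultured fibroblasts and epithelial cells commonly keep the Hox pattern of the body site that they came from, and Polycomb proteins hold unused Hox genes silent.

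RNA sequencing was done on 6 libraries, 1 per condition, from cells grown for 18 hours in serum-free DMEM with 0.1% BSA. The mouse embryonic fibroblasts (MEFs) were Tsc2+/+ p53-/- or Tsc2-/- p53-/-, so both lacked p53, and Tsc2 encodes the brake on the growth kinase complex mTORC1. MKOC and TJ cells were lines of Tsc2-null kidney epithelial cells, TJ being derived from a secondary tumor in C57BL6 mice, and each was untreated or given 100 nM rapamycin, an mTORC1 inhibitor. Each genotype or line stood for 1 culture in these data, the labels did not say that the pair of MEF cultures came from littermates, and fewer cells of a type and less RNA per cell could not be told apart in such bulk samples.

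Tsc2 itself had levels of 22.6 TPM in the Tsc2+/+ and 10.5 TPM in the Tsc2-/- fibroblasts, and of 44.0 to 49.1 TPM in the untreated and 19.1 to 19.5 TPM in the rapamycin-treated kidney cells, where TPM is a level corrected for transcript length and scaled to the same total in every library. The authors state that the Tsc2-/- MEFs were checked to lack Tsc2 expression and the Tsc2+/+ MEFs to have it. The deleted part of Tsc2 was not given in the sources used here, so reads of it in libraries labelled Tsc2-/- do not check the labels, which are used as given. Libraries held 22887020 to 37505004 estimated counts, and transcripts under 300 bases took 20.9% of the TPM in Tsc2+/+ MEFs against 4.09% to 7.998% in the others. Of 10 fibroblast markers, 9 reached 1 TPM in Tsc2+/+ MEFs and 10 in Tsc2-/- MEFs, against 2 or 3 in kidney libraries. Of 10 kidney epithelial markers, 8 reached 1 TPM in each kidney library, with Epcam at 0 to 0.0268 TPM and Krt19 below 1 TPM. Of the same 10, 3 reached 1 TPM in Tsc2-/- MEFs (Krt19 at 55.6, Emx2 at 23.6 and Krt18 at 20.6 TPM) and 1 in Tsc2+/+ MEFs (Emx2 at 11.2 TPM). The kidney libraries in turn held the fibroblast marker Vim at 3609 to 7523 TPM, above its 1118 TPM in Tsc2-/- MEFs, and the mesothelial marker Msln at 69.5 to 150.4 TPM. Of 13 nephron segment markers 2 to 5 reached 1 TPM per library, of 6 endothelial markers at most 1, and of 6 macrophage and leukocyte markers 1 or 2, with Csf1r at 11.3 to 30.3 and Cd68 at 4.48 to 8.01 TPM in kidney libraries and Adgre1 at 0.0169 TPM or less in all. All 7 mesothelial markers reached 1 TPM in Tsc2-/- MEFs, with a summed level of 533 TPM, and 1 of 7, Msln, did so in Tsc2+/+ MEFs, with a summed level of 2.71 TPM and with Upk3b, Upk1b and Gpm6a at 0.

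Promoter stretches are shown for 5 genes that stood for the different patterns of expression described below. They run from 150 bases before to 30 bases after the RefSeq start (GRCm38.p6, 5′ to 3′ on the gene's strand), with each CG dinucleotide, the target of DNA methylation, in capitals. Hoxa5 (chr6:52204558-52204737, minus strand) reached 1 TPM in all 6 libraries, Hoxb8 (chr11:96281755-96281934, plus strand) and Hoxd9 (chr2:74697613-74697792, plus strand) were at 0 counts in Tsc2+/+ MEFs and above 1 TPM in the other 5 libraries, and Hoxa11 (chr6:52245781-52245960, minus strand) and Hoxd10 (chr2:74691741-74691920, plus strand) reached 1 TPM in the 4 kidney libraries alone.
Hoxa5: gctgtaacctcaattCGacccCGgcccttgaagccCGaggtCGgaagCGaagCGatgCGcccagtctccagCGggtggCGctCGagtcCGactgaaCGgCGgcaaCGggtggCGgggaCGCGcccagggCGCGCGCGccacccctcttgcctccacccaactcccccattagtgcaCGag
Hoxb8: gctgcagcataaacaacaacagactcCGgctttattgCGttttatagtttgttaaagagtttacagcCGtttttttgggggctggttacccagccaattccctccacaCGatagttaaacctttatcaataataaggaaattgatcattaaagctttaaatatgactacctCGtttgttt
Hoxd9: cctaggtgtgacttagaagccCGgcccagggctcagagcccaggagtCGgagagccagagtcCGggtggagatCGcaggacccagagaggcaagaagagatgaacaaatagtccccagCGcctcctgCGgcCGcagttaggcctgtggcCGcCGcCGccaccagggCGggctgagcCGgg
Hoxa11: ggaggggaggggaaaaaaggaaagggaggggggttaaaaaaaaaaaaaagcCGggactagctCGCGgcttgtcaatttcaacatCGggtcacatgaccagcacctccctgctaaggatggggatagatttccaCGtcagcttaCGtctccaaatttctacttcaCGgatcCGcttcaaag
Hoxd10: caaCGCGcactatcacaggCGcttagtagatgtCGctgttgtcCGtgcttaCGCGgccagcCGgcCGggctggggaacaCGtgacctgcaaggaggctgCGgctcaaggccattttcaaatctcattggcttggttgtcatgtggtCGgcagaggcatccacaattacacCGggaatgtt
These stretches held 22 CG dinucleotides in Hoxa5, 5 in Hoxb8, 12 in Hoxd9, 8 in Hoxa11 and 13 in Hoxd10. Over the whole 300-base windows, 22 of the 39 Hox genes had an entry, and their median was 14.5 CG dinucleotides (range 4 to 45) against 7 over 32851 windows of all genes. TATAAA, the core letters of a TATA box, occurred on either strand in 4 of the 22 Hox windows and in 13.6% of all windows. CCAAT occurred in 15 of the 22 and in 37.4% of all windows, and TGATTNAT, the letters that a PBX and HOX protein pair can bind, occurred in 1 of the 22, that of Hoxa2, and in 3.22% of all windows.

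Hox messages were scarce in Tsc2+/+ MEFs and plentiful elsewhere. Their summed level was 27.9 TPM in Tsc2+/+ MEFs, 329 TPM in Tsc2-/- MEFs, 343 TPM in untreated and 393 TPM in rapamycin-treated MKOC cells, and 374 TPM in untreated and 418 TPM in rapamycin-treated TJ cells. At least 1 TPM was reached by 6 of the 39 genes in Tsc2+/+ MEFs, 26 in Tsc2-/- MEFs, 24 in untreated MKOC cells and 28 in each of the other 3 libraries. Among all 30281 symbols that level was reached by 37.4% in Tsc2+/+ MEFs and by 38.3% to 40.7% in the others, so the Tsc2+/+ MEFs held nearly as many expressed genes overall. The Tsc2+/+ library was also the deepest, and a count of 0 there allowed at most 0.0299 to 0.114 TPM, taking 3 counts as the most that a count of 0 allows (a one-sided limit for counting error only, whereas intervals below are two-sided).

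The clusters were used unequally. In Tsc2+/+ MEFs the 6 genes at 1 TPM or more all lay in HoxA, which gave 26.2 TPM, while HoxB gave 1.49, HoxC 0.142 and HoxD 0.0277 TPM. The Tsc2-/- MEFs had 75.1 TPM from HoxA, 133 from HoxB, 101 from HoxC and 20.1 from HoxD. Kidney cells used HoxA (116 to 171 TPM), HoxB (100 to 119 TPM) and HoxD (92.2 to 132 TPM), and HoxC little (13.4 to 25.8 TPM). HoxC therefore supplied 30.7% of the Hox TPM in Tsc2-/- MEFs and 3.59% to 6.58% in kidney libraries, and HoxD supplied 6.10% and 24.6% to 33.6%.

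**Figure D1:**
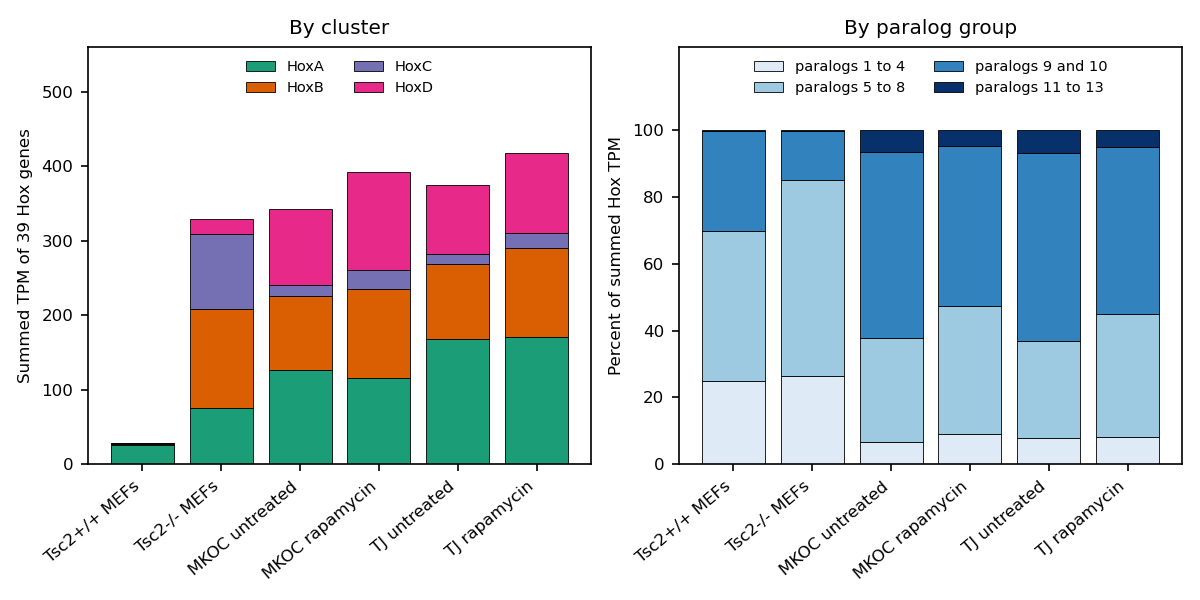
Left, summed TPM of the 39 Hox genes in each of the 6 libraries, stacked by cluster; right, the percent of that sum from 4 groups of paralogs, with 1 library per bar and no error bar. Tsc2+/+ MEFs reach 27.9 TPM and the other libraries 329 to 418 TPM, and paralogs 9 to 13 take a larger part in the 4 kidney libraries than in Tsc2-/- MEFs.

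At 1 TPM, the posterior limit of expression differed between Tsc2-/- fibroblasts and kidney cells in each cluster. The highest paralog at 1 TPM or more was Hoxa10, Hoxb9, Hoxc9 and Hoxd9 in Tsc2-/- MEFs, and Hoxa11, Hoxb13, Hoxc10 and Hoxd10 in each of the 4 kidney libraries. In Tsc2+/+ MEFs it was Hoxa10, and no gene of the other clusters reached 1 TPM. The limit depended on the level asked for: at 5 TPM Tsc2-/- MEFs reached Hoxc8 and no kidney library went past Hoxc6, and by more than 3 counts Tsc2-/- MEFs reached Hoxc13 (7 counts) and kidney cells Hoxc10, while HoxB then reached Hoxb13 in both (4 counts in Tsc2-/- MEFs). Paralogs 9 and 10 together made up 14.8% of the Hox TPM in Tsc2-/- MEFs, 30.02% in Tsc2+/+ MEFs, where Hoxa10 was nearly all of it, and 48.0% to 56.4% in kidney cells. Paralogs 11 to 13 made up 0.118% and 0.208% in the MEFs and 4.74% to 6.69% in kidney cells, while paralogs 1 to 4 made up 26.3% and 25.1% in the MEFs and 6.53% to 9.08% in kidney cells. Of the 30 Hox genes at 1 TPM in any library, 13 were higher in Tsc2-/- MEFs than in all 4 kidney libraries, and each of the 13 had a paralog number of 8 or less. Another 11 were lower in Tsc2-/- MEFs than in all 4 kidney libraries, and 8 of these 11 had a paralog number of 9 or more, the others being Hoxa7, Hoxd4 and Hoxd8. Of the same 30 genes, 21 had a paralog number of 8 or less and 9 one of 9 or more. Among all 13913 symbols at 1 TPM in any library, 44% were higher and 31.5% lower in Tsc2-/- MEFs than in all 4 kidney libraries, shares near those of the Hox genes. Line, tissue and culture moved together between MEFs and kidney cells, so these values are a description without a test.

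**Figure D2:**
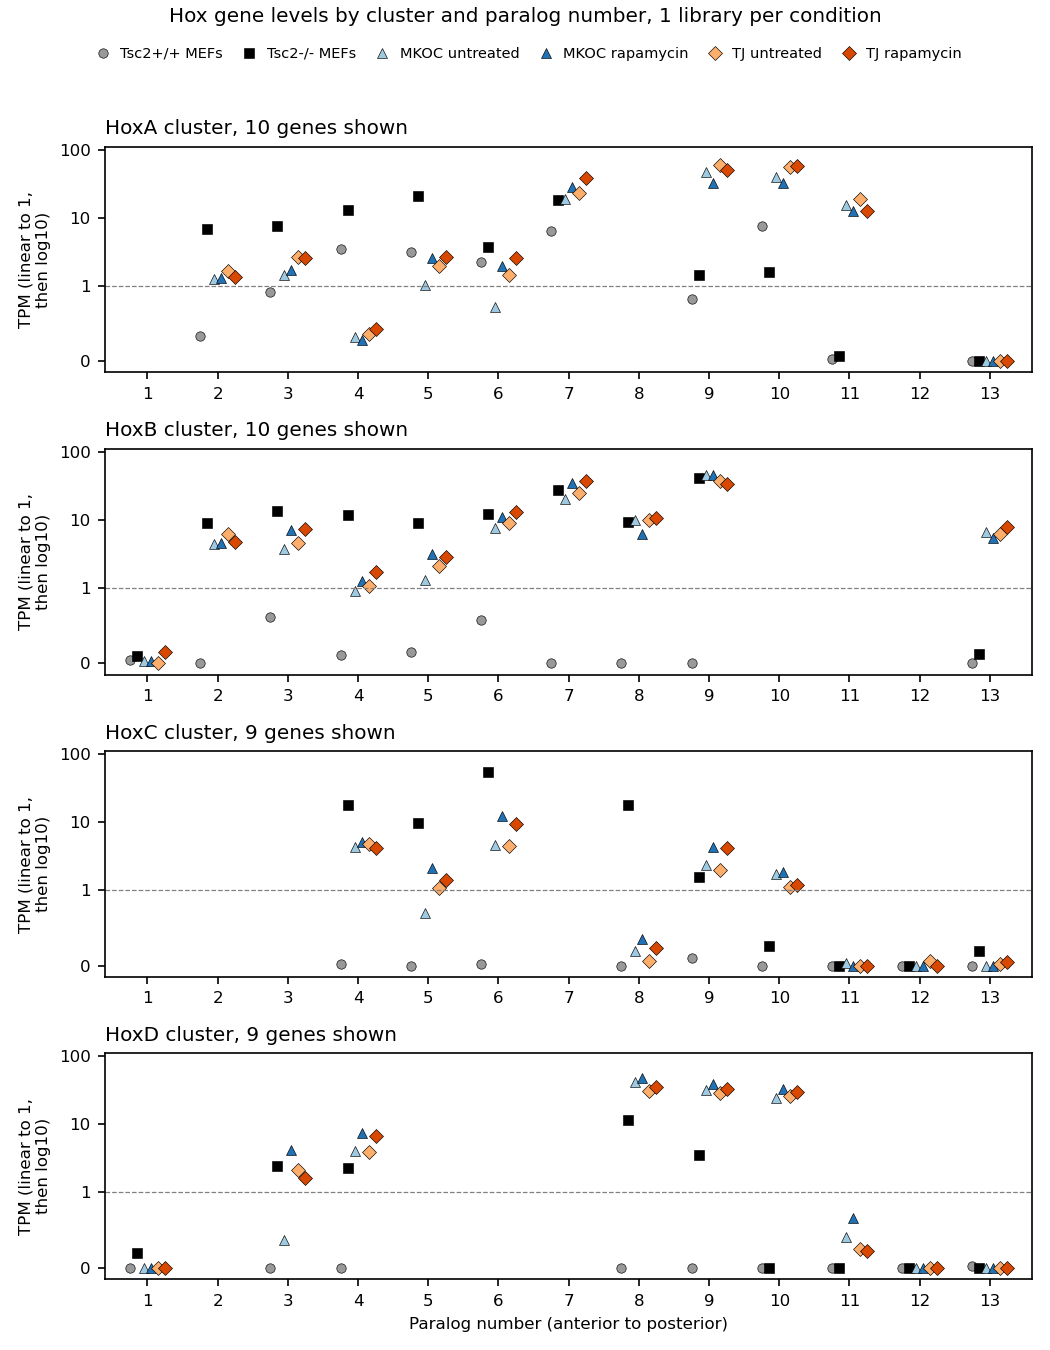
TPM of the Hox genes (vertical axis, linear up to 1 and log10 above) against its paralog number, a panel for each cluster and a symbol for each of the 6 libraries; the dashed line is 1 TPM. Tsc2+/+ MEFs lie below the line for HoxB, HoxC and HoxD, Tsc2-/- MEFs stay below it past paralog 10 in HoxA and 9 in the other clusters, and kidney cells rise above it up to Hoxa11, Hoxb13, Hoxc10 and Hoxd10.

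In the sentences that follow, 6 values in a row are TPM levels in Tsc2+/+ MEFs, Tsc2-/- MEFs, untreated MKOC, rapamycin-treated MKOC, untreated TJ and rapamycin-treated TJ cells, in that order. In HoxA, Hoxa2, which patterns the cranial neural crest, had 0.335, 6.73, 1.25, 1.31, 1.66 and 1.35, and Hoxa3, needed for thymus and parathyroid, had 0.920, 7.59, 1.42, 1.69, 2.65 and 2.55. Both were highest in Tsc2-/- MEFs and did not pass 3 TPM elsewhere. Hoxa4 had 3.42, 12.8, 0.317, 0.272, 0.353 and 0.430, on in both MEFs and below 1 TPM in all kidney libraries. Hoxa5, a gene of the neck and thorax that the developing lung needs, had 3.14, 20.6, 1.03, 2.53, 1.96 and 2.60. Hoxa6 had 2.20, 3.73, 0.721, 1.94, 1.44 and 2.56. Hoxa4, Hoxa5 and Hoxa6 thus shared an order in which Tsc2-/- MEFs were above Tsc2+/+ MEFs and above all kidney libraries. Hoxa7, a thoracic gene, had 6.38, 18.2, 19.0, 28.2, 23.0 and 38.3. Hoxa9, also a blood stem cell gene, had 0.820, 1.41, 46.2, 31.9, 59.9 and 49.5, and Hoxa10, a gene of the lumbar spine and uterus, had 7.45, 1.56, 39.7, 32.8, 55.7 and 57.8. Hoxa9 was the most abundant HoxA gene in both untreated kidney libraries, and Hoxa10 was the only Hox gene at 1 TPM or more whose TPM was lower in Tsc2-/- than in Tsc2+/+ MEFs. Hoxa11, which acts with Hoxd11 and Hoxc11 in the early kidney, had 0.0303, 0.0613, 15.1, 12.6, 18.6 and 12.7, the MEF values resting on 2 counts each. Hoxa13, a gene of digits and genital tract, was at 0 counts in all 6 libraries.

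In HoxB, Hoxb2, a hindbrain gene, had 0, 9.11, 4.34, 4.53, 6.08 and 4.76, and Hoxb3, also of the hindbrain and pharynx, had 0.617, 13.6, 3.66, 7.12, 4.51 and 7.29. Hoxb4, known from blood stem cells, had 0.107, 11.6, 0.959, 1.24, 1.07 and 1.71. All 3 were highest in Tsc2-/- MEFs. Hoxb5 had 0.147, 8.87, 1.31, 3.18, 2.09 and 2.87, and Hoxb6 had 0.573, 12.2, 7.65, 11.1, 8.92 and 12.9. Hoxb7, whose promoter is widely used to mark the ureteric bud and collecting duct, had 0, 27.6, 20.5, 34.8, 24.7 and 37.1. From Hoxb6 to Hoxb9 the level in Tsc2-/- MEFs lay within the range of the kidney libraries. Hoxb8 had 0, 9.26, 9.89, 6.17, 9.88 and 10.8, and Hoxb9, a thoracic gene, had 0, 40.5, 45.2, 45.4, 37.5 and 34.0. Hoxb9 was the leading HoxB gene in 4 of the 6 libraries and had 0 counts in the Tsc2+/+ library. Hoxb13, a gene of the tail, hindgut and prostate at the far end of the cluster, had 0, 0.128, 6.58, 5.38, 6.16 and 7.79. Hoxb1, at the other end, stayed at 0.145 TPM or less. Hoxb13 was the only gene of paralog group 13 at 1 TPM or more in any library, since Hoxa13, Hoxc13 and Hoxd13 were at 0.198 TPM or less.

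In HoxC, Hoxc4 had 0.0177, 17.8, 4.31, 5.17, 4.76 and 4.20, and Hoxc5 had 0, 9.59, 0.692, 2.08, 1.09 and 1.39. Hoxc6, a gene of the upper trunk and forelimb level, had 0.0228, 54.0, 4.66, 12.1, 4.38 and 9.45. Hoxc6 was the most abundant of all Hox genes in Tsc2-/- MEFs and made up 53.3% of the HoxC level there. Hoxc8, a gene of the lower neck and thorax, had 0, 17.9, 0.196, 0.349, 0.0600 and 0.235, and so was the only Hox gene that reached 1 TPM in Tsc2-/- MEFs and nowhere else. Hoxc9, which sets thoracic motor neuron identity, had 0.102, 1.53, 2.33, 4.32, 1.97 and 4.17, and Hoxc10, its lumbar neighbour, had 0, 0.262, 1.70, 1.86, 1.09 and 1.18. Levels fell from Hoxc8 to Hoxc10 in Tsc2-/- MEFs, while in kidney cells Hoxc9 and Hoxc10 were both above Hoxc8. Hoxc11, Hoxc12 and Hoxc13 did not reach 1 TPM in any library, with 7 counts or fewer each.

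In HoxD, Hoxd3 had 0, 2.39, 0.366, 4.16, 2.15 and 1.63, and Hoxd4, a gene of the lower hindbrain and neck, had 0, 2.27, 4.08, 7.42, 3.88 and 6.66. Hoxd8 had 0, 11.7, 41.9, 47.5, 30.8 and 35.4, Hoxd9 had 0, 3.56, 31.5, 39.6, 28.7 and 32.7, and Hoxd10, a gene of the lumbar cord and hindlimb, had 0, 0, 24.6, 32.5, 26.4 and 30.2. Hoxd8, Hoxd9 and Hoxd10 made up most of the HoxD level in kidney cells, each at 24.6 to 47.5 TPM. Tsc2-/- MEFs stepped down from Hoxd8 to Hoxd9 and had 0 counts of Hoxd10. Hoxd11, the closest relative of Hoxa11 in this cluster, stayed at 0.225 to 0.664 TPM in kidney cells and 0 in MEFs, and Hoxd1, Hoxd12 and Hoxd13 stayed at 0.192 TPM or less. Of the 3 genes of paralog group 11, Hoxa11 was thus the only gene at 1 TPM or more.

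Over the 6 libraries, 4 genes reached 1 TPM in all (Hoxa5, Hoxa7 and Hoxa10 among them), 16 in kidney and Tsc2-/- MEF libraries but not in Tsc2+/+ MEFs, 4 in the kidney libraries alone (Hoxa11, Hoxb13, Hoxc10 and Hoxd10) and 9 in none. The 24 Hox genes at 1 TPM or more in all 4 kidney libraries differed between their highest and lowest kidney library by a median of 1.76 times, from 1.23 times for Hoxc4 to 2.75 times for Hoxc6.

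Tsc2-/- and Tsc2+/+ MEFs were compared to ask which genes change with loss of Tsc2, with 1 library each and therefore no test. Several HoxB, HoxC and HoxD genes stood far higher in the Tsc2-/- library. At least an 8-fold higher value of TPM + 1 in Tsc2-/- MEFs was found for 13 of the 39 Hox genes and a value 8-fold lower for 0 of 39, where the same rule held for 1.37% of all 30281 symbols in the higher and 0.221% in the lower direction. Among symbols with at least 1 TPM in a MEF library the shares were 3.24% and 0.525% of 12771, and 13 of the 26 Hox genes of that kind were higher. The 13 were 8 of 10 HoxB, 4 of 9 HoxC and 1 of 9 HoxD genes, with 0 of 11 in HoxA. The median log2 fold of TPM + 1 was 2.80 for the 26 Hox genes and 0.45 for all 12771 symbols, and 25 of the 26 were higher in Tsc2-/- MEFs. All 26 reached 1 TPM in Tsc2-/- MEFs and only 6 in Tsc2+/+ MEFs. Most thus entered the set through the library where they were high, which in part fixes their median and direction.

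The counts behind these folds left little room for counting error, though they say nothing of the spread between cultures. Hoxb9 had 1453 counts in Tsc2-/- and 0 in Tsc2+/+ MEFs, at least 1015-fold higher in TPM with the Tsc2+/+ library set to the 3 counts that a count of 0 allows. By the same bound, Hoxb7 (470 against 0 counts) was at least 319-fold higher, Hoxc8 (486 against 0) at least 315-fold, Hoxd8 (286 against 0) at least 301-fold and Hoxc5 (407 against 0) at least 276-fold. The lower ends of two-sided 95% counting intervals lay below these one-sided bounds, at 824-fold for Hoxb9, 258-fold for Hoxb7 and 255-fold for Hoxc8. Genes with a few counts in Tsc2+/+ MEFs had ratios with intervals. Hoxc6 had 1024 counts against 1, a TPM ratio of 2362 with a 95% counting interval of 423 to 93402. Hoxb4 had 430 counts against 8 and a ratio of 109 (54.9 to 254), and Hoxb3 had 460 against 41.0 and a ratio of 22.1 (16.02 to 31.2). Some members were low in both, as Hoxb1 had 3 counts in each library and Hoxd10 had 0 in each.

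Apart from Hoxa13, at 0 counts in each, HoxA genes were read in both MEF libraries, so their ratios were bounded on both sides. Hoxa5 had 540 counts in Tsc2-/- and 167 in Tsc2+/+ MEFs, a TPM ratio of 6.54 (95% counting interval 5.49 to 7.83). Hoxa2 had a ratio of 20.1 (11.8 to 35.3), Hoxa3 of 8.26 (6.26 to 11.03), Hoxa4 of 3.76 (3.07 to 4.61) and Hoxa7 of 2.85 (2.47 to 3.29). Hoxa2 and Hoxa3 thus passed 8-fold as ratios of TPM but not on the TPM + 1 scale, as did Hoxc9 with 15.1 (6.82 to 39.3) and, by their bounds against a count of 0, Hoxd9 (at least 72.8-fold), Hoxd3 (at least 63.6-fold) and Hoxd4 (at least 56.6-fold). Only Hoxa10 went the other way, with 36 counts against 321 and a ratio of 0.209 (0.144 to 0.296), and it was the single Hox gene at least 2-fold lower on the TPM + 1 scale, against 22 that were at least 2-fold higher. The share of all symbols past 2-fold was not taken. The median log2 fold of the 12771 symbols was itself 0.45, so the 22 cannot be set against a background. At 10 TPM or more in both libraries, 7377 symbols had a median ratio of 1.31. With TPM scaled to bring that ratio to 1, 9 Hox genes stayed at least 8-fold higher and 0 lower, and the share of all symbols under that scaling was not taken. Hoxb2, Hoxb3, Hoxb5 and Hoxb6 then had log2 folds of 2.99, 2.82, 2.76 and 2.71 and no longer passed.

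**Figure D3:**
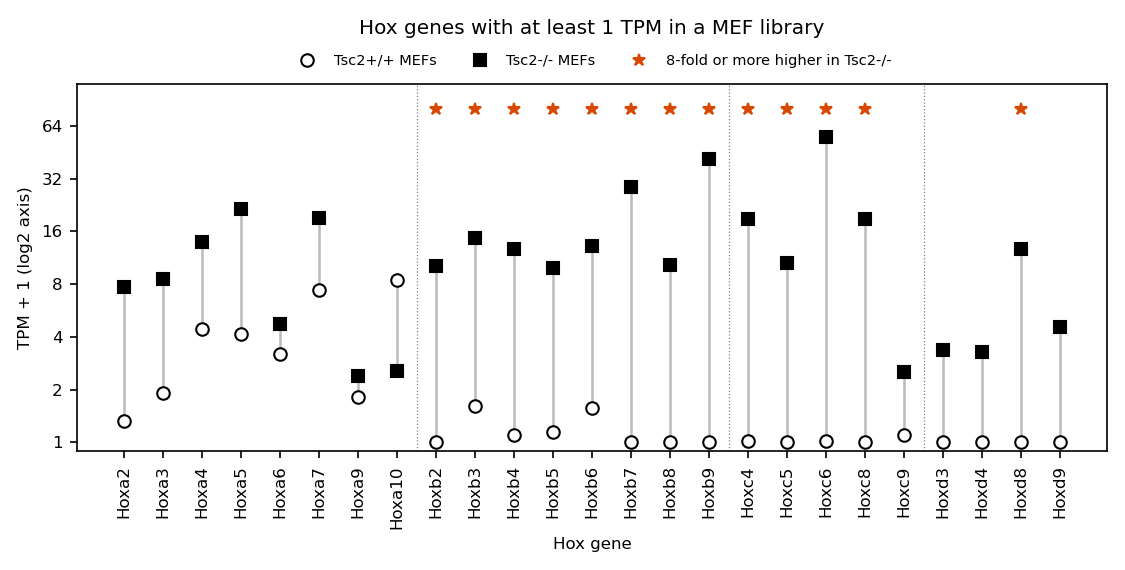
TPM + 1 on a log2 axis for 25 of the 26 Hox genes with at least 1 TPM in a MEF library, open circles for Tsc2+/+ and filled squares for Tsc2-/- MEFs, 1 library each, with dotted lines between clusters. Stars mark the 13 genes at least 8-fold higher in Tsc2-/- MEFs, none of them in HoxA, and Hoxa10 is the only gene with the open circle on top.

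Other genes moved between the same pair of libraries. All 7 mesothelial markers were at least 8-fold higher in Tsc2-/- MEFs (Upk3b 154 against 0 TPM, Wt1 81.6 against 0.0668 TPM), 3 of 16 retinoic acid genes were (Aldh1a1 114 against 0.0852 TPM, Aldh1a2 35.0 against 0 TPM and the receptor gene Rarb 12.2 against 0.111 TPM), and so was Tbx5, a forelimb and heart factor (8.94 against 0.0941 TPM). Among markers of other cell types, the epithelial keratin genes Krt18 (20.6 against 0 TPM) and Krt19 (55.6 against 0.0506 TPM, also on the mesothelial list) and the fibroblast marker Thy1 (7.36 against 0 TPM) were higher by the same rule, and the nephron marker Aqp1 was lower (0.475 against 61.3 TPM). Retinoic acid is a known inducer of Hox genes, and Aldh1a1 and Aldh1a2 encode enzymes that make it. The part of these differences in the Hox levels was not tested, and genotype and culture cannot be told apart with 1 library each. Genes just outside the clusters were read in both MEFs: Skap2 beside HoxA had 36.4 and 69.3 TPM, Snx11 beside HoxB 9.63 and 25.5, Cbx5 beside HoxC 49.3 and 113, and Mtx2 beside HoxD 49.0 and 88.0 TPM in Tsc2+/+ and Tsc2-/- MEFs. Of the 8 flanking genes at 1 TPM or more, 0 passed the 8-fold rule, where 3.24% of all symbols of that kind were higher and 0.525% lower, so a count of 0 in a list this short lies near the background. Their median log2 fold was 0.79, against 0.45 for all such symbols.

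Hox partner and chromatin genes were read in the same pair of libraries. The 8-fold counts of 0 below also lie near the shares of 3.24% higher and 0.525% lower among all symbols at 1 TPM in a MEF library. Of 11 genes for TALE homeodomain cofactors, which bind DNA with Hox proteins, 11 reached 1 TPM in a MEF library and 0 changed 8-fold, with a median log2 fold of 0.82 against 0.45 for all such symbols. Pknox2 stood at 0.131 and 2.51 TPM, Tgif2 at 5.89 and 18.8 TPM and Meis1 at 5.98 and 17.8 TPM in Tsc2+/+ and Tsc2-/- MEFs. Meis1 was nearly absent from kidney cells (0 to 0.123 TPM), where Meis2 (13.9 to 15.0 TPM) and Meis3 (22.6 to 34.1 TPM) were read. All 11 genes of Polycomb repressive complex 2 and all 18 of complex 1 were above 1 TPM, and 0 of them changed 8-fold, the nearest being Cbx7 at 1.71 against 13.5 TPM. The 11 genes of the opposing MLL complexes and H3K27 demethylases were all above 1 TPM, with 0 past 8-fold, and the 6 Cdx and ParaHox genes, which are upstream regulators and relatives of Hox genes, stayed at 0.0823 TPM or less in every library, as did Evx1 and Evx2 at the cluster ends, at 0.0378 TPM or less.

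Rapamycin was compared with no treatment in the kidney cells, with both lines in 1 edgeR quasi-likelihood fit and the line as a block. Treated cells had more message of 9 Hox genes, 8 of them with paralog numbers of 8 or less, and less of Hoxa9 and Hoxa11. Of 29 Hox genes with enough counts to test, 9 were higher and 2 lower at a Benjamini-Hochberg adjusted p under 0.05 over 12952 genes, of which 17.5% were higher and 17.4% lower. The share of Hox genes that were higher (31.0%) was thus above, and the share that were lower (6.90%) below, that of all genes, and the median log2 fold change was 0.37 for the 29 and 0.015 for all genes. By paralog number, 8 of the 19 genes numbered 1 to 8 were higher and 0 lower, and of the 10 genes numbered 9 to 13, 1 was higher and 2 lower, and the difference between these groups of paralogs was not tested. The fit had 4 libraries for 3 coefficients, so its error came mostly from what all genes share.

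Hoxc6 rose most clearly. It had 102 and 203 counts in untreated and treated MKOC and 88.0 and 181 in TJ cells, a log2 fold change of 1.19 ± 0.22 (SE; edgeR, adjusted p = 0.00257). Both lines went the same way and treated and untreated TPM levels did not overlap. Hoxb7, with 431 and 573 counts in MKOC and 469 and 710 in TJ cells, rose by 0.68 ± 0.13 on the log2 scale (edgeR, adjusted p = 0.00319). Hoxa7 rose by 0.59 ± 0.12 (edgeR, adjusted p = 0.00336) and Hoxb3 by 0.87 ± 0.18 (edgeR, adjusted p = 0.00509). The TPM levels given above showed all 4 of these genes higher in both treated than in both untreated libraries.

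Smaller or less certain rises were found for Hoxc9 (log2 fold change 0.90 ± 0.23, edgeR adjusted p = 0.0141), Hoxd4 (0.71 ± 0.19, adjusted p = 0.0157), Hoxb6 (0.54 ± 0.15, adjusted p = 0.0195) and Hoxc5 (1.44 ± 0.40, adjusted p = 0.0197), the last on 14 to 41.8 counts per library. Hoxd3 passed with 1.44 ± 0.48 (edgeR, adjusted p = 0.0414), but its TPM rose in MKOC cells from 0.366 to 4.16 and went from 2.15 to 1.63 in TJ cells. Its counts rose in both lines, from 18.2 to 89.1 and from 41.7 to 54.9. The 415-base shortest of its 6 transcripts held 2.07 TPM in treated MKOC and 1.37 TPM in untreated TJ cells, and without it the Hoxd3 level was 0.366 and 2.09 TPM in MKOC and 0.778 and 1.16 TPM in TJ cells. The annotated span of Hoxd3 overlaps that of Hoxd4, that of Hoxc5 overlaps Hoxc6, Hoxc8, Hoxc9 and Hoxc10, and that of Hoxa3 overlaps Hoxa4, Hoxa5 and Hoxa6, so the split of reads between them is an estimate.

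Hoxa9 and Hoxa11 fell. Hoxa11 had 641 and 413 counts in untreated and treated MKOC and 706 and 485 in TJ cells, a log2 fold change of -0.42 ± 0.13 (edgeR, adjusted p = 0.0348), and Hoxa9 had -0.37 ± 0.11 (edgeR, adjusted p = 0.0243). Their neighbour Hoxa10 had -0.12 ± 0.12 (edgeR, adjusted p = 0.481), with -0.27 in MKOC and 0.052 in TJ cells on log2(TPM + 1). Nearest to the threshold among the genes that missed it were Hoxb5 (0.76 ± 0.28, edgeR adjusted p = 0.0608), Hoxa6 (1.07 ± 0.40, adjusted p = 0.0626), Hoxa5 (0.82 ± 0.33, adjusted p = 0.0789) and Hoxd10 (0.29 ± 0.12, adjusted p = 0.0838). The abundant Hoxb9 had -0.06 ± 0.11 (edgeR, adjusted p = 0.686), Hoxd8 0.10 ± 0.11 (adjusted p = 0.515) and Hoxd9 0.25 ± 0.11 (adjusted p = 0.105).

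The number of calls rested on the line block and the tool. With treatment alone in the model, 1 Hox gene, Hoxc6, was higher and 0 lower, where 4.32% and 5.53% of all genes were called. With DESeq2, 4 of 35 were higher (Hoxa7, Hoxb3, Hoxb7 and Hoxc6) and 0 lower, where 7.03% and 8.3% of all genes were called.

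**Figure D4:**
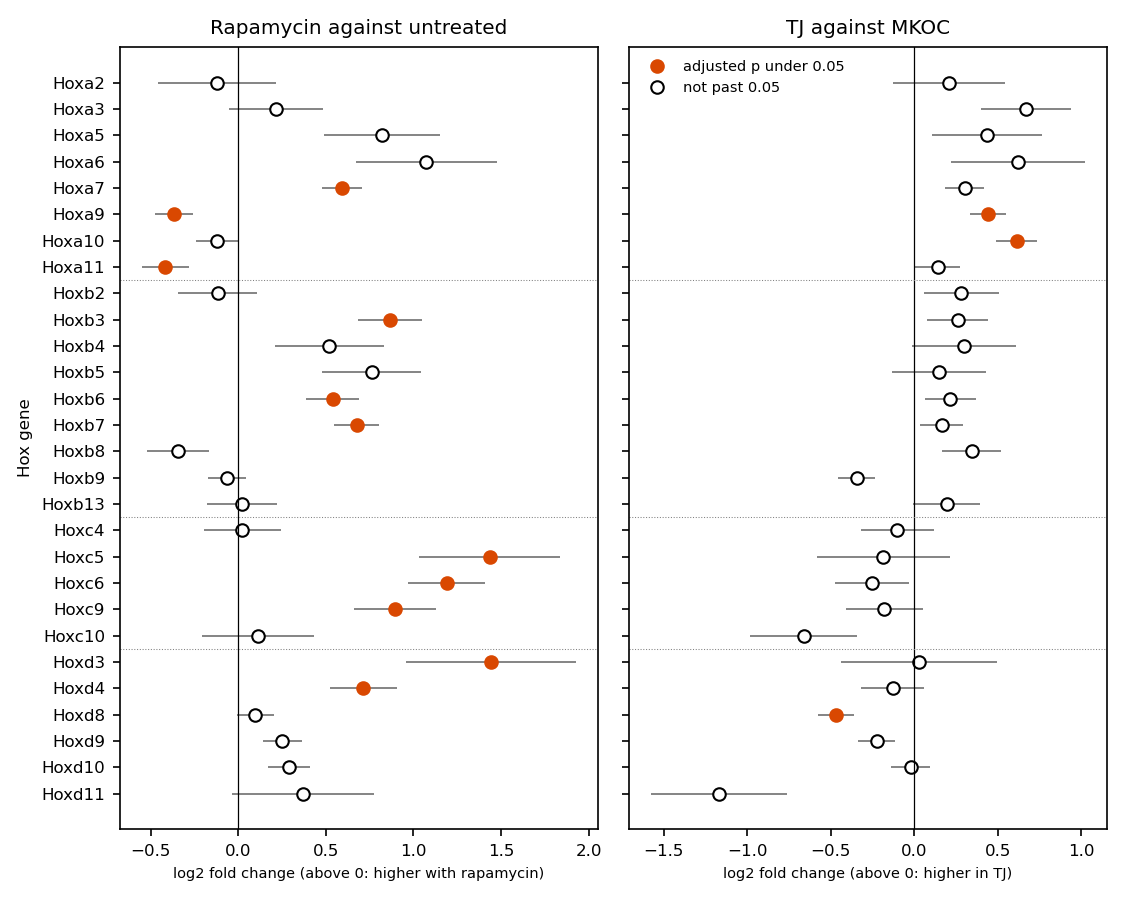
Log2 fold change of 28 of the 29 Hox genes tested, by edgeR in the 4 kidney libraries, for rapamycin against untreated (left) and TJ against MKOC (right); bars are ± 1 standard error, filled points have an adjusted p under 0.05 and dotted lines part the clusters. On the left 9 filled points lie above 0 and 2 below; on the right HoxA points all lie above 0, with Hoxa9 and Hoxa10 filled, and Hoxd8 is filled below 0.

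Chromatin and partner genes were read in the same fit, in which 17.5% of all genes rose and 17.4% fell, and the shares called in the lists of complex 1, of the MLL and demethylase genes and of the cofactors lay near or below these. Of the 11 genes of Polycomb repressive complex 2, 5 fell and 1 rose with rapamycin. Eed fell by 0.64 ± 0.11 on the log2 scale (edgeR, adjusted p = 0.00151), Suz12 by 0.53 ± 0.10 (adjusted p = 0.00359) and Rbbp7 by 0.43 ± 0.10 (adjusted p = 0.00672). Ezh2, the methyltransferase that silences Hox genes, fell by 0.37 ± 0.11 (edgeR, adjusted p = 0.0226) and Aebp2 by 0.31 ± 0.10 (adjusted p = 0.0407), while Phf1 rose by 0.80 ± 0.12 (adjusted p = 0.000689). Among 18 genes of complex 1, 2 rose and 3 fell, Pcgf5 with -0.57 ± 0.12 (edgeR, adjusted p = 0.00423). Of 11 MLL complex and demethylase genes, 2 rose and 2 fell. Kmt2a, whose protein keeps Hox genes active, rose by 1.11 ± 0.13 (edgeR, adjusted p = 0.000189) and Kmt2b by 0.43 ± 0.10 (adjusted p = 0.00996). Rbbp5 fell with -0.47 ± 0.11 (edgeR, adjusted p = 0.00755) and Ash2l with -0.36 ± 0.10 (adjusted p = 0.0165). Of the cofactor genes 2 of 10 rose, Pbx2 by 0.51 ± 0.12 (edgeR, adjusted p = 0.00978) and Meis3 by 0.42 ± 0.12 (adjusted p = 0.0215). Of 10 retinoic acid genes tested, 4 rose and 1 fell: Rdh10, an enzyme of its synthesis, rose by 1.22 ± 0.12 (edgeR, adjusted p = 6.36e-05) and the binding protein gene Crabp2 fell with -1.25 ± 0.25 (adjusted p = 0.00420). Of 9 flanking genes 3 rose and 1 fell, from Calcoco1 beside HoxC at 1.99 ± 0.11 (edgeR, adjusted p = 5.03e-06) to Mtx2 beside HoxD at -0.68 ± 0.10 (adjusted p = 0.000919). Of 7 fibroblast markers tested 3 rose and 0 fell, of 8 kidney epithelial markers 3 rose and 0 fell, of 2 mesothelial markers 1 rose and of 2 macrophage markers 1 rose (edgeR, adjusted p under 0.05). Of 6 nephron segment and 2 endothelial markers 0 rose and 0 fell. Among the fibroblast markers that rose, Col3a1 had only 5 to 18 counts per library. Some marker genes thus moved in the same libraries. The part of these changes in the Hox levels was not tested.

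TJ cells were compared with MKOC cells in the same fit, with rapamycin as the block. Hoxa10 was 0.61 ± 0.12 higher on the log2 scale in TJ cells (edgeR, adjusted p = 0.0135) and Hoxa9 0.44 ± 0.11 higher (adjusted p = 0.0335), while Hoxd8 was lower in TJ cells, with -0.47 ± 0.11 (adjusted p = 0.0252). That made 2 of 29 Hox genes higher and 1 lower in TJ cells, beside 5.47% and 3.32% of all 12952 genes, shares that the Hox genes were near. Hoxa10 had 1126 and 717 counts in untreated and treated MKOC and 1395 and 1456 in TJ cells, Hoxa9 had 1321 and 788 against 1613 and 1278, and Hoxd8 had 1493 and 1247 against 980 and 1060. In TPM the lines did not overlap for any of the 3, and for Hoxa9 untreated MKOC (46.2 TPM) and treated TJ cells (49.5 TPM) lay close together.

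By cluster, the fold changes of TJ over MKOC were above 0 for 9 of 9 HoxA, 8 of 9 HoxB, 0 of 5 HoxC and 1 of 6 HoxD genes, with medians of 0.43, 0.22, -0.19 and -0.18 on the log2 scale against -0.011 for all genes, of which 6232 of 12952 were above 0. Most of these single values missed the threshold, as Hoxb9 did with -0.35 ± 0.11 (edgeR, adjusted p = 0.0808) and Hoxd11 with -1.17 ± 0.41 (adjusted p = 0.114, on 13.02 to 33.0 counts). Genes of a cluster were read in the same libraries, so they are not independent. Marker genes also differed between the lines in this fit (edgeR, adjusted p under 0.05). Pdgfrb was higher in TJ cells (2.63 on the log2 scale), though on 2 to 17 counts and at 0.0245 to 0.180 TPM per library. Csf1r (0.94), Aqp3 (0.81), S100a4 (0.72) and Cdh16 (0.47) were also higher in TJ cells and Cdh5 (-1.57), Aqp1 (-1.36) and Msln (-0.43) lower. Their part in the Hox differences was not tested. With rapamycin left out of the model, 0 Hox genes passed the threshold by edgeR (3 had an unadjusted p under 0.05), and so did 0 of all 12952 genes. DESeq2 with rapamycin in the model called 1, Hoxa10, where 1.93% of all genes were called higher in TJ cells.

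The table held 5 annotated genes within the clusters that are no Hox gene, and 19 named noncoding and antisense genes of the clusters were not analysed here. Gm53, a long noncoding RNA gene between Hoxb13 and Hoxb9 (chromosome 11, 96251105 to 96264868, plus strand), had 0.130, 15.95, 19.5, 24.4, 17.4 and 23.6 TPM over the 6 libraries, and was lowest in Tsc2+/+ MEFs. With rapamycin it rose by 0.37 ± 0.13 on the log2 scale (edgeR, adjusted p = 0.0472). Gm28230, annotated as protein coding across Hoxd3 and Hoxd4 (chromosome 2, 74726728 to 74747918), had 0, 0.931, 2.22, 5.86, 2.24 and 4.71 TPM and rose by 1.23 ± 0.19 (edgeR, adjusted p = 0.000896), and since its span overlaps theirs its reads may be shared with those of Hoxd3 and Hoxd4. The libraries were made with a kit that keeps the strand, but whether the counting used it was not given in the sources used here, so Hox reads and antisense reads may be mixed.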

How the data were processed

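The authors trimmed the reads (Trimmomatic 0.32) and quantified transcripts with Kallisto, whose version was not given in the sources used here; a human transcriptome is named in the methods, whereas the identifiers in the table belong to mouse transcripts. They deposited an estimated count and a TPM value for each of 88198 transcripts in each library, and of these identifiers 86031 were in GENCODE M21 (GRCm38), as were all 87 Hox transcripts. The fold change deposited by the authors, a ratio of MEF levels, was not used other than for its gene symbols. The Hox genes as a set and the lists were chosen with earlier results of these data known and are no independent support, while membership followed the gene names. Counts and TPM were summed per symbol (30281), leaving out 1006 transcripts without one (0.372% to 0.468% of counts).

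The named genes were the Hox genes, those at 1 TPM or more with their value in every library, and from the other lists the few with the largest changes; values of some single genes are not reported here.

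Kidney libraries were fitted in edgeR 4.0.16 (R 4.3.3) by the quasi-likelihood test on rounded estimated counts, with TMM factors, its filter on low counts, and line and rapamycin as terms, with Benjamini-Hochberg adjustment at 0.05. The paired design follows from the line: deviations of same-line libraries correlated at 0.562 over 12952 genes. Nothing states that the libraries came from separate cultures, so p-values measure only the spread between them. MEFs had 1 library each, so an 8-fold rule on TPM + 1 was used, with exact 95% Poisson or binomial intervals and a floor of 3 counts for counting error. The fit was tested on simulated data. These were drawn with no difference between the lines and the same spread for all genes, so that test does not cover the line block. Alternatives were DESeq2 1.42.0, limma 3.58.1 on log2(TPM + 1), upper-quartile factors, other pseudocounts and filters.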

Additional observations from a re-analysis of the deposited data

Results flagged for a closer look

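For 4 of the Hox genes tested, TPM + 1 moved in opposite directions with rapamycin in MKOC and TJ cells, by at least 0.1 on the log2 scale in each line, and the difference between the lines was not tested. The log2 changes were -0.602 in MKOC and 0.117 in TJ for Hoxb8, -0.248 and 0.296 for Hoxb13, 0.215 and -0.148 for Hoxc4, and 1.92 and -0.26 for Hoxd3. Each rests on 1 library per line and treatment, and the share of all tested genes that met the same rule was not taken. Only Hoxd3 of the 4 had passed the joint test, and with its shortest transcript left out, a choice made after seeing the data, its changes were 1.18 in MKOC and 0.28 in TJ cells.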

How the results depend on the processing

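With no replicate block, that is without the line as a pairing term, 1 Hox gene was called with rapamycin, 1 higher and 0 lower, against 11, 9 and 2 with it. DESeq2 called 4, 4 higher and 0 lower, beside 7.03% and 8.3% of all genes. The lower genes numbered 1 with upper-quartile factors and 1 with limma on log2(TPM + 1), where 15.5% and 15.8% of all genes were lower. For TJ against MKOC, DESeq2 and limma each called 1 (1 higher in TJ, 0 in MKOC), no filter on low counts gave 2 higher in MKOC, and 0 in either direction were called with rapamycin out of the model, as were 0 of all 12952 genes, the cause not being tested. All genes called with rapamycin fell from 2267 higher and 2259 lower to 559 and 716 without the line and to 1391 and 1641 by DESeq2. Between the MEFs, a pseudocount of 5 left 2 Hox genes past 8-fold, both higher, and a 2-fold rule gave 23, 22 higher and 1 lower. The share of all symbols under either rule was not taken, so these counts have no background beside them. At 0.5 TPM, 10 genes were on in Tsc2+/+ MEFs, at 5 TPM 2, and by more than 3 counts 14; at 5 TPM the kidney libraries had 12, 16, 13 and 15 (MKOC untreated and treated, TJ untreated and treated). The single reversal among 79 values of single genes in the rapamycin fit was Hoxd3 in TJ cells alone, at -0.26. All 21 values of single genes for the lines kept their direction. The 91 for the MEFs did too, but came from the 13 genes picked as at least 8-fold higher. A change of pseudocount, threshold or scale could hardly reverse those, so the 91 are no check of direction. Dropping transcripts under 300 bases or using CPM left each MEF count within 1.5 times. With 1 library per condition, the spread between cultures was not measured.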
